A study of Rattus norvegicus and Mus musculus with 56 samples.

Results

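The subunits of oxidative phosphorylation were examined in 24 mouse RNA-seq libraries of the lumbar dorsal horn. The members were the protein-coding genes whose symbol starts with mt-Nd, mt-Co, mt-Cytb, mt-Atp, Nduf, Sdh, Uqcr, Cox4, Cox5, Cox6, Cox7, Cox8 or Atp5. This rule used names only and found 110 of 41388 identifiers, of which 13 lie in the mitochondrial genome and 97 in the nuclear genome. It also brings in 12 assembly factors of complexes I and II (Ndufaf and Sdhaf), which are not subunits, and it files Ndufa4 under complex I although that protein is now placed in complex IV.

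The libraries came from wild-type C57BL/6 mice, polyA RNA, dorsal horn at L4:L5, taken 7 days after surgery. The surgery was spared nerve injury (SNI), which severs part of the sciatic nerve's distal branches and leads to lasting pain hypersensitivity, or SHAM. Each of the 8 groups, Male or Female, SNI or SHAM, on the ipsi side (that of the operated nerve) or the contra side, held 3 libraries. The labels do not say whether libraries came from separate animals, whether animals were pooled, or which ipsi and contra libraries share an animal, so p-values reflect only how much these libraries vary, which may be partly technical. SHAM and SNI libraries alike are from operated animals, and no unoperated group was analysed here.

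Oxidative phosphorylation couples electron transfer along the inner mitochondrial membrane to ATP synthesis. Complex I takes electrons from NADH and complex II (succinate dehydrogenase) from succinate, complex III passes them to cytochrome c, complex IV reduces oxygen, and complex V uses the resulting proton gradient to make ATP. The mitochondrial genome encodes a few core subunits of complexes I, III, IV and V, the nucleus encodes all of complex II and the remaining subunits of the others, and neurons depend heavily on this pathway for the energy cost of signalling.

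Reads assigned to genes ranged from 27.98 M to 42.9 M per library (M, 1000000 reads). The 12 microglia markers, 15 dorsal horn neuron markers and 12 motor neuron markers looked up were all measured. The 8 libraries titled 49 to 56 had 75.4% to 76.1% of reads on genes against 71.4% to 74.7% in the 16 titled 33 to 48. The labels do not say what the title numbers stand for. Male SHAM contra replicate 1 stood apart by its high mitochondrial share and Female SNI contra replicate 3 by high values of several nuclear members. In bulk tissue, fewer cells of a type and less RNA per cell cannot be told apart.

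Before any comparison, the mitochondrially encoded members fell into an abundant set and a near-absent set that did not follow their roles. Values are TMM-scaled CPM, the counts a library would have per 1000000 reads on genes. The cytochrome c oxidase subunit mt-Co1 ranged from 11050 to 18100 CPM over the 24 libraries, and mt-Cytb, the cytochrome b of complex III, from 5838 to 10070 CPM. Its complex IV partners mt-Co2 (1.21 to 9.90 CPM) and mt-Co3 (1.98 to 10.3 CPM) were lower in every library by orders of magnitude. The complex V subunits mt-Atp6 (1.58 to 9.83 CPM) and mt-Atp8 (0.168 to 6.42 CPM) and the complex I subunits mt-Nd3 (2.83 to 6.18 CPM) and mt-Nd4l (0.403 to 2.92 CPM) were in the same low range. These 6 genes stand next to each other among the protein-coding genes of the mitochondrial genome, between mt-Co1 and mt-Nd4. The complex I subunits outside that stretch were high, mt-Nd4 at 2052 to 3818 CPM and mt-Nd1 at 3812 to 6618 CPM, apart from mt-Nd6, the only member on the other strand, at 76.4 to 151 CPM.

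**Figure D1:**
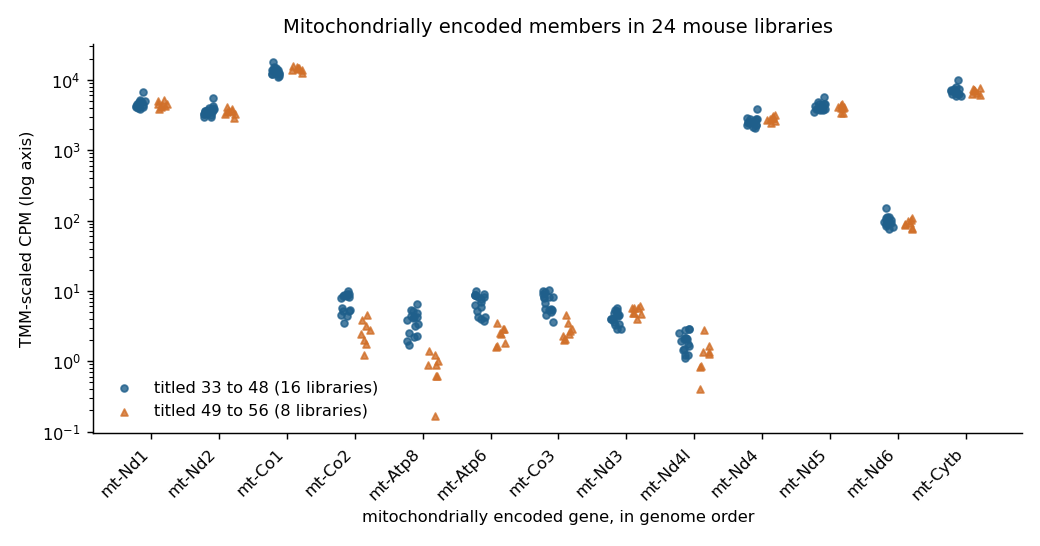
TMM-scaled CPM on a log axis of the 13 mitochondrially encoded members, in genome order, with 1 point per library, circles for the 16 libraries titled 33 to 48 and triangles for the 8 titled 49 to 56. The 6 genes from mt-Co2 to mt-Nd4l lie under 20 CPM in every library, while mt-Co1 lies at 11050 or above.

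The low stretch has near-identical copies in the nuclear genome. GENCODE M21 (GRCm38) annotates pseudogenes on chromosome 1, minus strand, from base 24611535 to base 24616197. They match mt-Co2 (Gm28661, 681 bases compared), mt-Atp6 (Gm10925, 678), mt-Co3 (Gm28437, 783) and mt-Nd4l (Gm10222, 294) with 0 differences, and mt-Nd3 (Gm28438, 345) with 1 difference. Gm29216, also in that interval, matches the last 492 bases of the abundant mt-Co1 with 6 differences. No pseudogene annotated there was matched to mt-Atp8. The starts of 2 members and of their copies are shown because a read from them carries little or nothing to tell the 2 loci apart. Capitals mark the single differing base, T3C, counted from 1 at the first base of mt-Nd3. The mt-Nd3 stretch is chrM:9459-9518, plus strand, and the mt-Nd4l stretch chrM:9877-9936, plus strand. The copies are at chr1:24613060-24613119 and chr1:24612641-24612700, minus strand.
mt-Nd3: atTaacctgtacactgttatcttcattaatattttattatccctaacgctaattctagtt
Gm28438: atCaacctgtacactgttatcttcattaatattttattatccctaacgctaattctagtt
mt-Nd4l: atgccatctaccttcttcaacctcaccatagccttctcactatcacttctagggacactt
Gm10222: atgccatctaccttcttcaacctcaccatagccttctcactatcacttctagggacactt

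The deposited files set aside 9.92% to 12.8% of reads as not uniquely placed, and such reads are on no gene. Whether the copies set the low values was not tested. The copies cover between 98.99% (mt-Nd4l) and 99.87% (mt-Co3) of these 5 low genes. For mt-Nd4, at 2052 CPM or more in every library, Gm28439 matches the first 876 bases with 0 differences, which is 63.6% of the gene, and no other annotated transcript covers the rest. The abundant mt-Co1 is covered over its whole length by Gm13340 on chromosome 2, at 97% identity or more. Coverage by a copy at that identity is therefore not particular to the low genes. The number of bases that differ between mt-Co1 and Gm13340 is not given. The pseudogenes of the low genes were also low, Gm28661 at 2.52 to 11.03 CPM and Gm10925 at 4.27 to 10.6 CPM. Reads on mt-Atp8 and mt-Atp6 are uncertain for another reason, since the genes overlap. Their shared 43 bases, chrM:7927-7969, plus strand, are shown with the start codon of mt-Atp6 in capitals.
mt-Atp8 and mt-Atp6: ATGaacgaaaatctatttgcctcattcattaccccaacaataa

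Levels in the low stretch also moved with the title numbers. The median of mt-Atp6 was 7.40 CPM in the 16 libraries titled 33 to 48 and 2.46 CPM in the 8 titled 49 to 56, and these ranges did not overlap (3.79 to 9.83 against 1.58 to 3.44). The median of mt-Nd3, in contrast, was 4.24 and 5.30 CPM. The low set is therefore described apart from the other 7 mitochondrial members, a division chosen after its values were seen.

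Per kilobase of annotated exon, the nuclear members spanned 3 orders of magnitude. Levels here are mean CPM per kilobase over 24 libraries. Cox8a, a small complex IV subunit, was the most abundant nuclear member at 277 CPM per kilobase, followed by Atp5b and Atp5a1, the catalytic beta and alpha subunits of ATP synthase, at 274 and 252. These 3 were close, and their order changed when the longest transcript was used as the length. Complex medians were 47.8 for complex I, 52.7 for II, 77.8 for III, 77.4 for IV and 59.3 for V, against 8.97 for the assembly factors. Sdha, the flavoprotein of succinate dehydrogenase, was highest in complex II at 131, Uqcr10 in complex III at 118 and Ndufa4 among the complex I symbols at 136.

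In several families of subunit isoforms, mostly of complex IV, the tissue-restricted forms had few reads. Cox4i1 had a median of 378.7 CPM and Cox4i2, the form known from lung and hypoxic cells, 1.08 CPM. Cox6a1 had 130.4 CPM and the heart and muscle form Cox6a2 0.147 CPM. Cox6b1 stood at 149.3 CPM and the testis form Cox6b2 at 3.10 CPM. Cox7a2 and Cox7a2l, a factor of supercomplex assembly, had 99.6 and 106.1 CPM, and the muscle form Cox7a1 2.04 CPM. Cox7b had a median of 107 CPM. Cox8a had 169.4 CPM and the muscle form Cox8b 0.269 CPM. Ndufa4 had 189.6 CPM and its hypoxia-induced relative Ndufa4l2 1.68 CPM. In contrast, the 3 genes for subunit c of ATP synthase, added here after their values were seen, all had reads in number, with medians of 107.3 CPM (Atp5g1), 36.1 CPM (Atp5g2) and 228.9 CPM (Atp5g3). Cox7b2 (133 reads in all) and Cox8c (0 reads) did not pass the filter on low counts, and the other 108 members, 95 of them nuclear, were tested.

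As a share of reads on genes, the 13 mitochondrial members took 3.06% to 4.86% and the nuclear subunits 0.911% to 1.13%. On the ipsi side of SNI mice the mitochondrial share was 3.28% ± 0.239 (SD, n = 6), against 3.57% ± 0.208 (SD, n = 6) on the ipsi side of SHAM mice and 3.58% ± 0.319 (SD, n = 6) on the contra side of SNI mice. The nuclear share was 0.960% ± 0.0360 (SD, n = 6), 1.01% ± 0.0253 (SD, n = 6) and 1.04% ± 0.0535 (SD, n = 6) in the same groups. On the contra side of SHAM mice the shares were 3.79% ± 0.538 (SD, n = 6) and 1.04% ± 0.0363 (SD, n = 6). The ipsi side was thus lower on average than the contra side in SHAM mice too. Both shares were lowest on average in the SNI ipsi libraries, and the ranges of the groups overlapped.

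**Figure D2:**
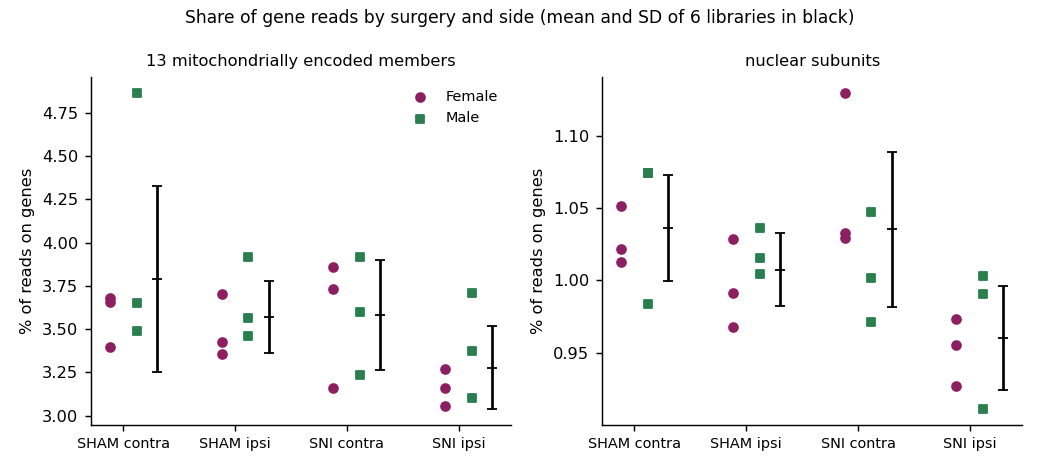
Percent of reads on genes that fell on the 13 mitochondrially encoded members (left) and on the nuclear subunits (right), with 1 point per library by surgery, side and sex, and the mean with SD of the 6 libraries of each surgery and side in black. Both axes start above 0. The SNI ipsi libraries have the lowest means, 3.28% and 0.960%, and 1 Male SHAM contra library stands above the rest at 4.86% on the left.

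The first comparison asked what SNI changed on the ipsi side relative to SHAM surgery. Of the members, 4 were called lower and 0 higher at an adjusted p under 0.05 (limma on log2 CPM, Benjamini-Hochberg over 18058 genes). Across all genes 0.205% were called lower and 1.95% higher. The 4 were Cox7b and Cox6c, small subunits of complex IV, Ndufv2, an iron-sulphur subunit of the NADH-oxidising arm of complex I, and Ndufaf2, an assembly factor of complex I. They lie on 4 chromosomes (GRCm38): Cox7b at chrX:106015700-106022450, Cox6c at chr15:35925886-35938246, Ndufv2 at chr17:66078638-66101559 and Ndufaf2 at chr13:108002715-108158623.

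Cox7b in the 6 SNI ipsi libraries had a lowest, median and highest value of 87.7, 93.1 and 97.9 CPM, against 92.9, 108.2 and 118.3 CPM in the 6 SHAM ipsi libraries. Of the SHAM libraries, Female replicate 3 alone lay inside the SNI range. The difference was -0.21 on the log2 scale (SE 0.05, adjusted p = 0.0210, limma). For Ndufv2 the values were 111.5, 122.0 and 127.9 CPM in SNI and 121.6, 141.6 and 153.2 CPM in SHAM. Here too Female SHAM ipsi replicate 3 was the SHAM library inside the SNI range. The difference was -0.20 (SE 0.05, adjusted p = 0.0262, limma). That library was the only SHAM ipsi library titled 49 to 56, against 3 of the 6 SNI ipsi libraries. Among those titles Ndufv2 was at 127.2, 111.5 and 114.2 CPM in SNI ipsi and at 121.6 CPM in SHAM ipsi.

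Cox6c ran from 132.9 through a median of 142.6 to 161.3 CPM in SNI and from 143.9 through 176.2 to 186.0 CPM in SHAM, a difference of -0.23 (SE 0.06, adjusted p = 0.0393, limma). Ndufaf2 ran from 18.6 through 21.6 to 23.2 CPM and from 22.5 through 25.8 to 28.4 CPM, a difference of -0.28 (SE 0.07, adjusted p = 0.0433, limma). Both pairs of groups overlapped at their edges. Of the Ndufaf2 exons, 65.7% overlap the antisense gene B230220B15Rik, and the sources do not say whether counting used strand, so reads of the 2 genes cannot be told apart.

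**Figure D3:**
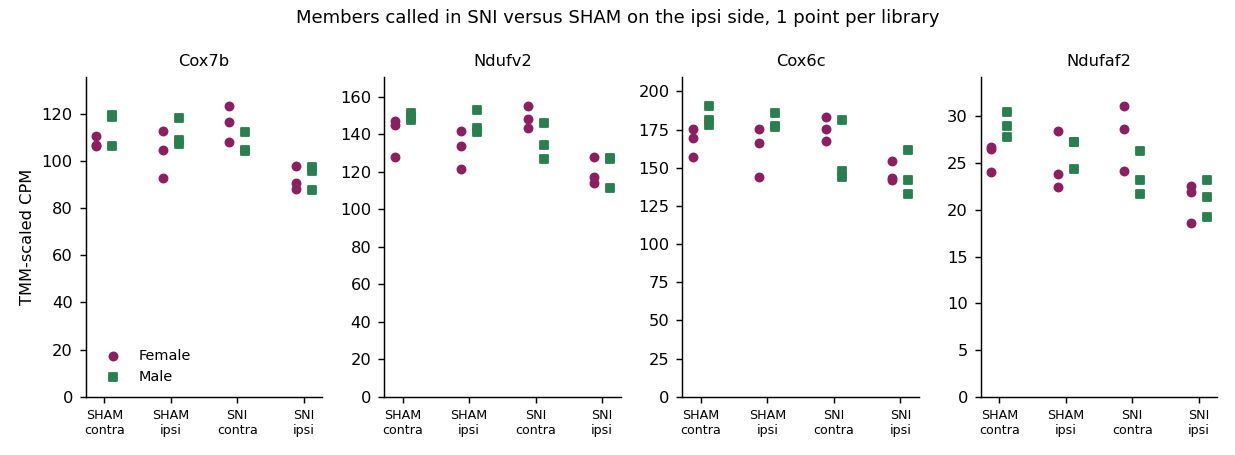
TMM-scaled CPM of Cox7b, Ndufv2, Cox6c and Ndufaf2, with 1 point per library by surgery and side, circles for Female and squares for Male, and axes from 0. The SNI ipsi points lie low in each panel, for Cox7b between 87.7 and 97.9 CPM.

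The other nuclear members lay on the same side of 0 with small values. Of 95, 90 had a fold change below 0, with a median of -0.107 on the log2 scale against -0.002 over all genes, and 47 had an unadjusted p under 0.05. Counts at an unadjusted p or by limma voom, here and below, are given without the matching share of all genes. They therefore show no excess over that share. By limma voom 3 were called. The medians by complex were -0.123 (I), -0.069 (II), -0.101 (III), -0.118 (IV), -0.103 (V) and -0.087 (assembly factors). In complex I the lowest value after filtering was that of Ndufa4 at -0.23 (SE 0.06, adjusted p = 0.0651) and the highest that of Ndufs7, an iron-sulphur subunit, at 0.02. Complex II stayed between -0.08 (Sdha) and -0.03 (Sdhc, a membrane anchor). In complex III, Uqcrb had -0.25 (adjusted p = 0.0847) and the core subunit Uqcrc1 -0.01, while the smallest p was that of the core subunit Uqcrc2 (-0.14, adjusted p = 0.0839). In complex IV, Cox8b had the lowest value, -0.27, with an SE of 0.29, and Cox7a2l the highest, 0.01. In complex V, Atp5k, the e subunit at the dimer interface, had -0.34 (SE 0.10, adjusted p = 0.125) and Atp5d, the delta subunit, 0.05, and the smallest p was that of Atp5f1, the b subunit of the peripheral stalk (-0.15, SE 0.04, adjusted p = 0.105). Ndufaf8 was highest among the assembly factors at 0.11 (adjusted p = 0.668).

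By limma and by limma voom 0 mitochondrial members were called in this comparison, and 3 of 13 had an unadjusted p under 0.05. All 13 values were below 0. The 7 abundant members ran from -0.23 (mt-Nd2, SE 0.09, adjusted p = 0.237) to -0.10 (mt-Co1, SE 0.09), with a median of -0.156. The 6 low members had a median of -0.638, with errors as large as that of mt-Atp8 (-1.29, SE 0.65). The titles 49 to 56, in which most of these genes were lower, are unevenly spread, with 3 of 6 SNI ipsi libraries and 1 of 6 SHAM ipsi libraries among them. With a term for these titles the median of the 6 was -0.316 and without those libraries -0.341, with 0 called in either; both settings were added after seeing the data.

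On the contra side, SNI and SHAM libraries were compared in the same way. No member was called, and 0.0% of genes were called. By limma voom 0 members were called as well, and 1 of 108, mt-Nd6, had an unadjusted p under 0.05. The nuclear median was -0.017, with 58 of 95 values below 0. Cox7b, called on the ipsi side, stood at 0.00 here, and Ndufv2 at -0.03 (SE 0.05). The 6 low mitochondrial members had a median of -0.614 on the contra side. That median was -0.181 with a term for titles 49 to 56 and -0.581 without those libraries, both settings added after seeing the data.

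The second main comparison set the ipsi against the contra side of SNI mice. It shares the SNI ipsi libraries with the first, so the 2 are not independent. Of the members 26 were called lower and 0 higher. Across all genes 3.29% were called lower and 3.56% higher. Among the 95 nuclear members 90 values were below 0, 68 had an unadjusted p under 0.05, and the median was -0.146 against 0.004 over all genes. Complex I gave 16 of the calls among 38 tested, complex III 3 of 8, complex IV 3 of 16, complex V 3 of 17, the assembly factors 1 of 12 and complex II 0 of 4, where the median was -0.109. By limma voom, 26 were called. Of the 13 mitochondrial members 0 were called by either method and 3 had an unadjusted p under 0.05, and the 7 abundant ones had a median of -0.174. The highest nuclear value was that of Cox6b2 (0.30, SE 0.13, adjusted p = 0.180).

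Cox7b again had the smallest p. Its SNI contra values had a lowest, median and highest of 104.1, 110.1 and 123.3 CPM, above every SNI ipsi library, and the difference was -0.26 (SE 0.05, adjusted p = 0.00190, limma). Ndufv2 was at 127.0, 144.5 and 155.0 CPM on the contra side and differed by -0.24 (SE 0.05, adjusted p = 0.00506, limma). In complex IV, Cox7a2 (-0.21, adjusted p = 0.00971) and Cox6b1 (-0.19, adjusted p = 0.0103) were also called, and Cox6c, called in the first comparison, was not (-0.19, adjusted p = 0.0552).

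The calls in complex I covered its functional arms. Ndufv2, Ndufs1, Ndufs3, Ndufs4 and Ndufs8 belong to the matrix arm that takes up and passes on electrons, and fell by between 0.14 (Ndufs3) and 0.24 (Ndufv2) on the log2 scale. The accessory subunits Ndufa1, Ndufa5, Ndufa6, Ndufa9, Ndufa10, Ndufa11, Ndufb5, Ndufb8, Ndufb10 and Ndufc2 and the gene Ndufa4 fell by between 0.15 (Ndufa6) and 0.23 (Ndufa4). Ndufa1 had a lowest, median and highest of 26.4, 30.6 and 34.4 CPM on the ipsi side and of 32.6, 36.5 and 39.5 CPM on the contra side, so the groups overlapped slightly.

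In complex III the core subunit Uqcrc2 (-0.15), the hinge protein Uqcrh (-0.19) and Uqcr10 (-0.16) fell. In complex V the calls were Atp5g1, which encodes the membrane ring subunit c (-0.22, adjusted p = 0.0262), Atp5j (-0.15) and Atp5o, the stalk protein known as OSCP (-0.16). Ndufaf2 was the assembly factor (-0.28, adjusted p = 0.0188). Atp5o and Ndufs3 have near-identical copies elsewhere, covering 76.7% and 75.7% of the transcript at 97% identity or more, so their counts are uncertain.

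**Figure D4:**
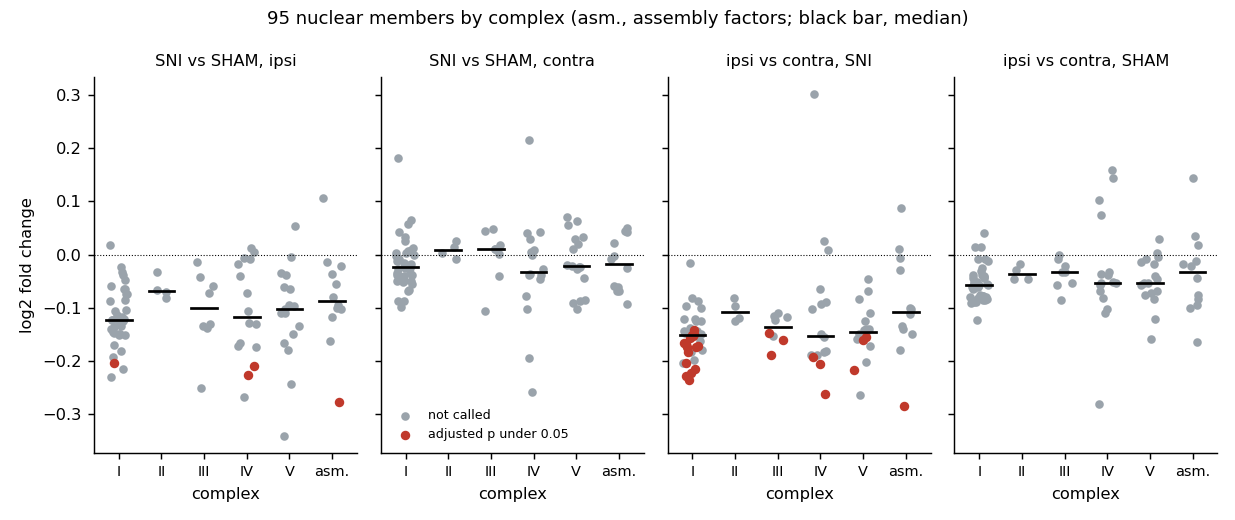
Log2 fold change of the 95 tested nuclear members by complex in 4 comparisons, with called members in red and a black bar at the median of each complex. In SNI versus SHAM on the ipsi side and ipsi versus contra in SNI mice the medians of every complex lie below 0, with 4 and 26 members called.

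In SHAM mice the same comparison of sides called 0 members by limma and 0 by limma voom, and 0.0% of all genes. The nuclear median was -0.052 with 83 of 95 values below 0, and 1 member, Atp5g1, had an unadjusted p under 0.05. Whether the side difference was larger in SNI than in SHAM mice was tested as the surgery by side interaction. It called 0 members by either method, against 0.637% of all genes called, and 7 of 108 members had an unadjusted p under 0.05. The nuclear median of the interaction was -0.089, and Cox7b had the smallest p (-0.21, SE 0.07, adjusted p = 0.423). The members called between sides in SNI mice were therefore not shown to differ from the SHAM side difference.

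The sexes were compared in the same fit. Female and Male libraries differed in 0 members by limma and 0 by limma voom, with 1 of 108 members at an unadjusted p under 0.05 and 0.537% of all genes called. The effect of SNI on the ipsi side differed between the sexes in 0 members by either method and 0.0% of genes, with 3 of 108 members at an unadjusted p under 0.05 and Ndufa4l2 at the smallest p (-0.84, SE 0.29, adjusted p = 0.475). Taken within a sex, an analysis added after the data were seen, that effect had a nuclear median of -0.107 in Female and -0.109 in Male libraries. It called 0 members in Female libraries, where 0.0332% of genes were called lower, and 1, Cox6c, in Male libraries, where 0.0997% were.

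The side difference within SNI mice was larger in value in Female libraries. There 47 nuclear members were called lower, against 5.65% of all genes, and the nuclear median was -0.237. In Male libraries 0 were called by limma and 0 by limma voom, against 0.0111% of all genes called lower, 7 members had an unadjusted p under 0.05, and the median was -0.057. The difference between the sexes itself called 0 members by either method and 0.00554% of genes, with 26 of 108 members at an unadjusted p under 0.05, so a sex difference in any member was not shown.

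Markers of motor neurons, which lie in the ventral horn, also differed between the sides of SNI mice, by larger values in Female than in Male libraries. The difference between the sexes in the SNI side effect called 0.00554% of all genes. Its values for these markers are not given, so a sex difference in them is not shown. Their mean log2 CPM over 12 genes ran from 2.53 to 3.40 in the Female SNI ipsi libraries and from 4.63 to 5.38 in the Female SNI contra libraries, without overlap. In Male libraries the ranges were 3.97 to 4.53 and 4.29 to 4.56. In SHAM libraries of both sexes and sides the range was 3.27 to 5.10. Of the 12 markers, 6 were called lower between sides in SNI mice, among them Chat, the acetylcholine-synthesising enzyme (-1.49), and Mnx1, a motor neuron transcription factor (-2.90), and Mnx1 alone was called on the ipsi side of SNI against SHAM mice. Within a sex, the ipsi side of SNI against SHAM mice had a marker median of -1.498 in Female libraries, with 0 called. In Male libraries that median was -0.047, with 0 called lower and Ret called higher (0.89). None of the 12 was at 0 reads in all libraries. Other neuronal markers moved between the sides of SNI mice as well. Of 14 pan-neuronal markers, 4 fell (Nefh -0.81, Nefm -0.84, Nefl -0.65 and Snap25 -0.28) and Gap43 rose (0.55). Of 15 dorsal horn neuron markers, 4 rose (Pdyn 0.50, Grp 0.47, Lmx1b 0.37 and Penk 0.31) and 0 fell, and of 8 astrocyte markers Gfap rose (0.53). In Female libraries alone 7 pan-neuronal markers were called lower, 2 higher and 8 dorsal horn markers higher. Of all genes 5.65% were called lower there, and the share called higher is not given. In Male libraries 0 of either list were called by limma or limma voom, with 4 and 2 at an unadjusted p under 0.05. The part of these shifts in the members' values was not tested.

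With the motor neuron level as a term in the fit, 0 members were called in either main comparison, with 28 and 27 members at an unadjusted p under 0.05, and the nuclear medians were -0.094 (SNI against SHAM, ipsi) and -0.119 (SNI sides). Without the 4 libraries outside the SHAM range of those markers, 2 each from the Female SNI ipsi and Female SNI contra groups, 1 and 2 members were called, and the medians were -0.117 and -0.108. This setting was added after seeing the data, and the share of all genes called is not given for either refit.

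**Figure D5:**
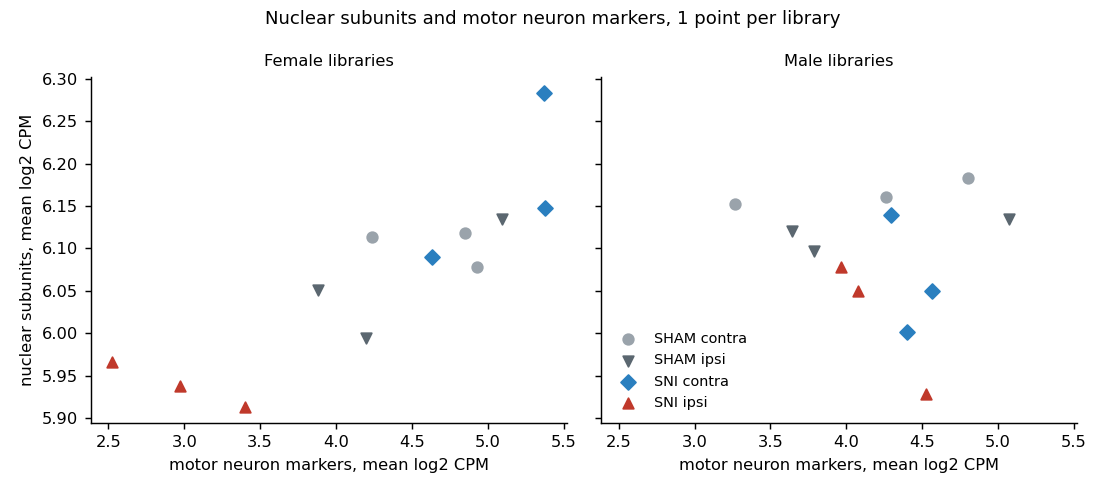
Mean log2 CPM of the nuclear subunits against that of 12 motor neuron markers, with 1 point per library, Female on the left and Male on the right. In Female libraries the SNI ipsi points are lowest on both axes, from 2.53 to 3.40 for the markers, while in Male libraries the marker ranges of the groups overlap.

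The microglia markers moved as well, in both sexes. All 12 were called higher in both main comparisons, and their mean log2 CPM ran from 5.19 to 5.80 in SNI ipsi libraries against 4.39 to 4.71 in SHAM ipsi and 4.17 to 4.48 in SNI contra libraries. The part of microglial RNA in the lower share of the members was not tested.

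The titles and single libraries also bore on the counts, which are given without the share of all genes called under the same setting. Changes in these counts are therefore not shown to be particular to the members. Without the libraries titled 49 to 56, which hold 8 of the 24, 0 members were called in both comparisons, with 38 and 41 at an unadjusted p under 0.05 and nuclear medians of -0.098 and -0.122. With a term for the titles 4 and 45 were called. Leaving out single libraries moved the first count between 0 and 10. It was 0 without Male SHAM ipsi replicate 1, Male SNI ipsi replicate 3, Female SHAM ipsi replicate 1 or 2, or Female SNI ipsi replicate 2 or 3, it was 2 without Male SHAM ipsi replicate 2 or Male SNI ipsi replicate 2, and 10 without Female SHAM ipsi replicate 3. The second count moved between 4 and 50. It was 4 without Male SNI ipsi replicate 3 or Female SNI contra replicate 3, 6 without Male SNI contra replicate 1 or Female SNI ipsi replicate 2, 11 without Male SNI contra replicate 3, 16 or 17 without Female SNI ipsi replicate 3 or 1 or Male SNI ipsi replicate 2, and 50 without Female SNI contra replicate 1.

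Other genes of mitochondrial metabolism gave the following calls between the sides of SNI mice, to be read against the 3.29% of all genes called lower and 3.56% called higher. Of 16 genes of the tricarboxylic acid cycle, which feeds electrons to complexes I and II, and of pyruvate dehydrogenase, 6 fell. The cycle genes were Sucla2 (-0.23), Idh3a (-0.15) and Mdh2 (-0.16), and those of pyruvate dehydrogenase Pdhb (-0.17), Dlat (-0.19) and Pdha1 (-0.13). The median of the 16 was -0.137. Of 15 genes of cytochrome c and coenzyme Q synthesis, 3 fell: Coq7 (-0.24), Coq3 (-0.28) and Cycs, which is cytochrome c itself (-0.18). Of 12 carriers and porins, the ADP/ATP carriers Slc25a4 (-0.17) and Slc25a5 (-0.19) fell. Of 34 further assembly factors 1 was called, a share below that of all genes: Atpaf1, which helps build complex V (-0.36).

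Among 19 regulators of mitochondrial biogenesis, the coactivator Ppargc1a (-0.26) and its partner Esrra (-0.25) fell, and the antioxidant enzyme Sod2 (-0.22) fell among 8 genes of mitochondrial antioxidant defence. Of 17 glycolytic genes, Hk2, a hexokinase, rose by 1.11 (SE 0.12, adjusted p = 1.77e-06, limma) and Ldhb, a lactate dehydrogenase subunit, fell by 0.23. On the ipsi side of SNI against SHAM mice, Hk2 was the one gene of these lists that was called (0.80, SE 0.12, adjusted p = 2.72e-04, limma). The list of the tricarboxylic acid cycle and pyruvate dehydrogenase had 16 of 16 values below 0 there, with a median of -0.069 and no call. Sucla2 had the smallest p in it (-0.19, adjusted p = 0.0888). The smallest p of the other lists there were those of Coq8b (0.19, adjusted p = 0.0976), Cox18 (0.17, adjusted p = 0.251), Mpc2 (-0.12, adjusted p = 0.258), Ppargc1a (-0.15, adjusted p = 0.284) and Sod2 (-0.13, adjusted p = 0.347), none of them called.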

How the data were processed

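PolyA RNA of 24 mouse libraries was analysed, and the 32 rat libraries were not used. The authors deposited, for each library, whole-number read counts per Ensembl gene, not normalized, with reads outside genes, ambiguous or not uniquely placed listed apart and left out of library totals here. STAR and GRCm38 are named in the submitters' processing notes, and the sources used here do not give the counting tool or its strand setting. The deposited counts were analysed as log2 CPM with limma, with limma voom as an alternative, and no negative binomial count model was run. Names and lengths came from GENCODE M21 (40340 of 41388 identifiers matched, with 99.87% of gene reads). Genes needed about 10 counts in 3 libraries and 15 in all. Libraries were scaled by TMM, log2 CPM used a prior count of 2, and limma 3.58.1 (R 4.3.3, trend, robust, two-sided) was fitted over 8 group means with 16 residual degrees of freedom, with Benjamini-Hochberg adjustment over 18058 genes and calls at 0.05. The fit was also run on simulated counts with changes larger than those of the called members and without title or sex differences. That run does not bear on effects of the size reported here. Near-identical copies were sought with blastn at 97% identity over at least 75 bases. Members and lists were chosen with earlier results of these data known. Named genes were the mitochondrial members, every called member, the extremes and smallest p per complex, isoform families and called pathway genes. A second annotated identifier with the symbol Atp5o was not analysed here.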

Additional observations from a re-analysis of the deposited data

Results flagged for a closer look

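Among 168 sets of 6 libraries (each surgery and side, for the called members, the mitochondrial members and the read shares), 17 had 1 library far from the other 5. Chance alone gives about 1 in 20 such sets, and members measured in 1 library are not independent.

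Of these values, 8 belong to Male SHAM contra replicate 1, which was high. Its mitochondrial share was 4.86% of gene reads, against 3.398% to 3.679% in the others. It had 10070 CPM of mt-Cytb (others 6597 to 7261), 6618 of mt-Nd1 (4348 to 4905), 5521 of mt-Nd2 (3489 to 3953), 5773 of mt-Nd5 (4027 to 4483), 3818 of mt-Nd4 (2463 to 2902) and 151.2 of mt-Nd6 (89.6 to 111.3), and 132.5 CPM of the nuclear Ndufb10 (110.8 to 117.9).

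Another 7 belong to Female SNI contra replicate 3, also high. It had 135.4 CPM of Atp5g1 (others 106.8 to 112.1), 185.5 of Ndufa10 (145.3 to 159.3), 82.1 of Ndufa11 (59.9 to 68.1), 116.2 of Ndufb5 (89.3 to 98.9), 72.3 of Ndufs8 (59.3 to 63.8), 175.6 of Uqcrh (134.2 to 148.7) and 2.77 of mt-Nd4l (1.22 to 1.67). Its motor neuron level was above the SHAM range, and the part of that level in these values was not tested. Female SHAM contra replicate 3 was low for Ndufv2, with 127.7 CPM against 144.7 to 151.6, and Female SHAM ipsi replicate 3 for Ndufa1, with 29.01 CPM against 34.3 to 37.1.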

How the results depend on the processing

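The called members kept their direction in all 720 refits of single members (30 member results, 24 alternatives each). Of these refits 388 kept the call and 332 lost it. The members were picked for low values in largely the same libraries, so a kept direction is no independent support. SNI against SHAM on the ipsi side called 4 members, 0 with library totals in place of TMM, 2 with no filter, 0 without titles 49 to 56, 0 with the motor neuron term, 1 without libraries outside the SHAM range of motor neuron markers, 0 in Female and 1 in Male libraries, and 0 to 10 when leaving out 1 library. The SNI sides called 26, with 6, 15, 0, 0, 2, 47 and 0 under the same settings, 5 with only the groups compared in the fit, 45 with a term for titles 49 to 56 and 4 to 50 when leaving out 1 library. Library totals moved the median of all genes to 0.0201 and 0.0399. The other 5 comparisons called 0 members under every alternative run. Apart from the fits within a sex, nuclear medians stayed between -0.123 and -0.085 (SNI against SHAM, ipsi) and between -0.165 and -0.108 (SNI sides). Within a sex they were -0.107 (Female) and -0.109 (Male) for the first and -0.237 and -0.057 for the second. Mitochondrial medians were -0.056 (SNI against SHAM, ipsi, from -0.190), 0.040 (SNI sides) and 0.107 (interaction) with the motor neuron term and 0.099 (interaction) without libraries outside the SHAM range. Over the 6 low members alone they were -0.638 on the ipsi side and -0.614 on the contra side. The mitochondrial share had a median of 3.53%, and 0.292% without the most abundant 10 genes. Causes of these changes were not tested, and the refit counts here are given without the share of all genes called under each setting. No paired analysis was possible because the replicate numbers only follow accession order and no label ties an ipsi library to a contra library.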
